A study of Mus musculus with 12 samples.

Results

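The kidney transcriptome of mice with chronic kidney disease (CKD) that received iron dextran was compared with that of untreated CKD mice, across every protein-coding gene expressed in the kidney and with programs other than the antioxidant genes in view. The comparison rests on 8 of the 12 mice of the series, 4 per group, and on 13148 of the 22053 listed gene rows, those with an expression of at least 1 FPKM in at least 4 of the 12 mice. FPKM are fragments per kilobase of transcript, corrected for the number of reads mapped in that mouse. All mice were wild-type C57BL/6. Untreated CKD mice (CKD) ate chow with 0.2% adenine from the age of 8 weeks to the age of 16 weeks and were injected with PBS into the abdomen every week. Iron-treated mice (CKD+Fe) had the same adenine chow for the same 8 weeks and a weekly intraperitoneal dose of 0.5 g/kg iron dextran, a complex of ferric hydroxide and dextran. Control mice ate the matched chow without adenine and also received PBS, and their levels are given for reference. Each mouse contributed 1 whole kidney RNA library, and mice are numbered 1 to 4 within their group.

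Adenine in the diet is oxidized to a poorly soluble product that crystallizes in the tubules, and the kidney responds with tubular injury, inflammation and fibrosis. The proximal tubule reabsorbs most of the filtrate and draws its energy mainly from the oxidation of fatty acids, a program that the nuclear receptor PPAR alpha activates. Injured tubules lose transporters and metabolic enzymes, express repair and cytokine genes, and are surrounded by fibroblasts that deposit matrix. Further along the nephron, the distal tubule and the collecting duct adjust salt, water, acid and base. Iron is carried in plasma by transferrin, taken up through the transferrin receptor, stored in ferritin and exported by ferroportin.

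The depth in reads is unknown because FPKM carry no counts. Total FPKM ran from 503438 to 603556 in CKD and from 536139 to 572074 in CKD+Fe mice. All 7 kidney markers checked, among them Umod of the loop of Henle and Lrp2 of the proximal tubule, were above 1 FPKM in all 8 mice. Of 8 markers of fat, adrenal gland, muscle and urothelium found in the table, 3 were under 1 FPKM in all 8 mice and none exceeded 1 FPKM in all of them. The fat marker Adipoq reached 11.3 FPKM in CKD+Fe mouse 4, and the urothelial marker Upk3a ran from 0.476 to 7.38 FPKM among CKD+Fe mice. In each group 1 library stood apart. Control mouse 3 had 596 genes at least 2-fold from the mean of the rest of its group, against 42 to 167 in the other control mice. It shared the fit and so its spread, and was left out only together with all controls. CKD mouse 3 had 806 genes at least 2-fold from the mean of the rest of its group, against 141 to 179 in the other CKD mice, and CKD+Fe mouse 1 had 442, against 44 to 225 in the other CKD+Fe mice. Results are therefore also given without CKD mouse 3 and CKD+Fe mouse 1, the 2 outlying mice named below. Both were singled out from these same expression values, so the results without them are no independent check. In whole tissue, fewer cells of a type and less RNA per cell cannot be told apart.

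A single gene, Fabp1, rose with iron dextran at an adjusted p under 0.05, which is 0.00761% of the 13148 genes tested, and no gene fell (0%). The test was limma on log2(FPKM + 1) with all 12 mice in the fit and Benjamini-Hochberg adjustment, and fold changes on this scale understate the change of genes with low expression. At an adjusted p under 0.5, the cutoff printed in the RNA sequencing methods of the study, whose general threshold is 0.05, 92 genes (0.7%) were higher and 72 (0.548%) were lower in CKD+Fe mice. At this loose threshold a share of the calls of up to about 0.5 may be false, so genes that pass it are called higher or lower here rather than risen or fallen. At an unadjusted p under 0.05, 431 genes were higher (3.28%) and 359 lower (2.73%), together little above the share that such a threshold passes with no difference. All 4 CKD+Fe mice lay above all 4 CKD mice for 178 genes (1.35%) and below them for 143 (1.09%). Such a separation gives an exact two-sided permutation p of 0.0286, the smallest that 4 mice against 4 allow. Over all genes, the log2 fold change had a median of -0.0005.

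Both loose counts rested on single mice. Without CKD mouse 2 they were 4 and 5, without CKD+Fe mouse 3 they were 2 and 2, without CKD+Fe mouse 4 they were 3 and 4, and without CKD mouse 4 they were 30 and 15. They were 1027 and 1433 without CKD mouse 3, 797 and 1052 without CKD+Fe mouse 1, 118 and 114 without CKD mouse 1, and 99 and 115 without CKD+Fe mouse 2. With both CKD mouse 3 and CKD+Fe mouse 1 left out, 1427 genes (10.9%) were higher and 2310 (17.6%) lower at an adjusted p under 0.5, and 8 (0.0608%) were higher and 7 (0.0532%) lower at an adjusted p under 0.05. Of the 164 genes called with all mice at the loose threshold, 164 were called again without these 2 mice. Without CKD mouse 2 just 8 of them were, without CKD+Fe mouse 3 there were 4, without CKD+Fe mouse 4 there were 6, and without CKD mouse 4 there were 42, so the counts of higher and lower list members given below at this threshold hold for all 8 mice together.

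The gene that passed, Fabp1, belongs to lipid metabolism. Fabp1 encodes the liver-type fatty acid binding protein, a carrier of fatty acids in the cytosol, and lies at chr6:71199827-71205023 in GRCm38. It was at 3.41, 2.44, 0.891 and 5.65 FPKM in CKD mice 1 to 4 and at 28.5, 16.4, 73.5 and 46.1 FPKM in CKD+Fe mice 1 to 4. All 4 CKD+Fe mice exceeded both the CKD mice and the control mice, whose range was 1.24 to 2.97 FPKM. The mean rose from 3.1 ± 2 to 41.1 ± 24.8 FPKM (SD, n = 4 each), a 13.3-fold difference of the means. The log2 fold change was 3.30 with a standard error of 0.42 (limma, adjusted p = 0.0284). It ran from 2.96 to 3.66 with each mouse left out in turn and was 3.08 (adjusted p = 0.0333) with both outlying mice left out. The call was lost without CKD mouse 2 (0.0941), CKD mouse 3 (0.0572), CKD+Fe mouse 3 (0.0812) or CKD+Fe mouse 4 (0.0904), and over all alternatives the adjusted p ran from 0.00493 to 0.297.

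Fabp1 heads a list of fatty acid oxidation genes and PPAR alpha targets, of which 54 were tested. Of these, 8 were higher at an adjusted p under 0.5, among them Fabp1, Cd36, Acaa2, Cyp4a10, Acaa1b, Cyp4a31 and Decr1, and none was lower, against 0.7% and 0.548% of all genes. At an unadjusted p under 0.05, 20 of the 54 (37%) were higher and none was lower, against 3.28% and 2.73% of all genes. The log2 fold change was positive for 51 and negative for 3, with a median of 0.38, against -0.0005 for all genes. The list mean of log2(FPKM + 1) was 5.42, 4.99, 5.20 and 5.30 in CKD mice 1 to 4 and 5.20, 5.86, 5.86 and 6.05 in CKD+Fe mice 1 to 4. Mouse 1 of the CKD+Fe group lay inside the CKD range, and the other CKD+Fe mice lay above it. With both outlying mice left out, the median was 0.55, 54 of 54 members were positive, and 43 were higher at an adjusted p under 0.5, against 10.9% of all genes in that fit. Without CKD+Fe mouse 4 alone the median was 0.275.

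Cd36, a fatty acid transporter of the plasma membrane, was far below control mice in both groups. It measured 41.6, 34.1, 30.6 and 33.6 FPKM in the CKD mice and 75.5, 51.9, 72 and 59.9 FPKM in the CKD+Fe mice, with 179 to 299 FPKM in controls. Each CKD+Fe mouse lay between the untreated CKD mice and the controls (log2 fold change 0.87, standard error 0.17, adjusted p = 0.216).

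A pair of thiolases, which cut the last bond in each round of beta-oxidation, were among the 8 genes. Acaa2, the mitochondrial one, was at 108, 87.2, 93.7 and 105 FPKM in CKD mice and 123, 162, 236 and 209 FPKM in CKD+Fe mice (log2 fold change 0.84, standard error 0.18, adjusted p = 0.254). Acaa1b, the peroxisomal one, was at 73, 54.9, 72 and 59.2 FPKM in CKD mice and 82.3, 141, 231 and 215 FPKM in CKD+Fe mice (log2 fold change 1.26, standard error 0.28, adjusted p = 0.254). Neither gene overlapped between the groups, and in both CKD+Fe mouse 1 was nearest to the CKD mice. Cyp4a10, a fatty acid omega-hydroxylase and a classical PPAR alpha target, was at 107, 46.1, 34.6 and 74.5 FPKM in CKD mice and 123, 125, 225 and 288 FPKM in CKD+Fe mice (log2 fold change 1.55, standard error 0.34, adjusted p = 0.254). Here too no mice overlapped, although CKD mouse 1 reached 107 FPKM. The related Cyp4a31 ran from 30.8 to 55.7 FPKM in CKD mice and from 43.5 to 106 FPKM in CKD+Fe mice and overlapped between the groups in CKD+Fe mouse 1 (adjusted p = 0.462). Decr1, which prepares unsaturated fatty acids for oxidation, ran from 42.4 to 57.5 FPKM and from 53.7 to 77.4 FPKM, with the same mouse in the CKD range (adjusted p = 0.479). Acaa1b and the Cyp4a genes have close paralogs, so how reads were shared among the copies is uncertain.

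**Figure D1:**
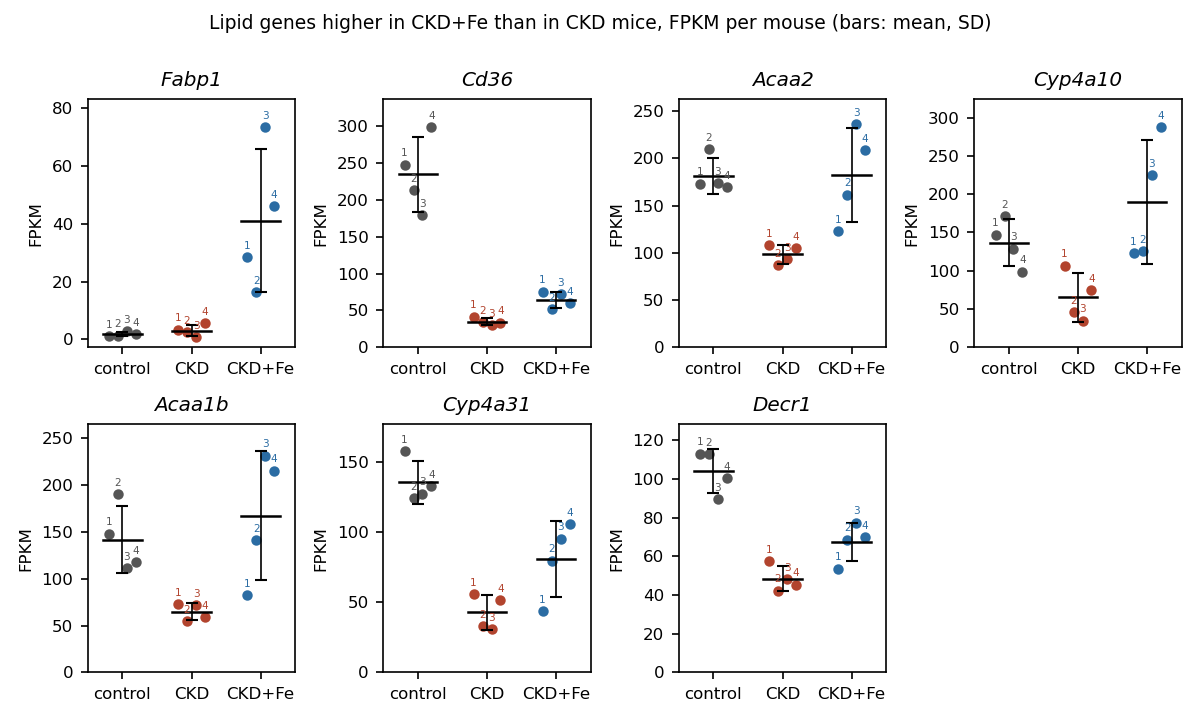
FPKM (vertical axes, linear from 0) of 7 lipid genes with higher values in CKD+Fe mice at an adjusted p under 0.5, 1 point per mouse with its number, for control, CKD and CKD+Fe mice. Horizontal bars are group means and error bars are SD (n = 4), and CKD+Fe mice 1 to 4 lie above all CKD mice in every panel but those of Cyp4a31 and Decr1, where CKD+Fe mouse 1 lies among them.

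PPAR alpha binds DNA with its partner RXR at a direct repeat of the half-site AGGTCA with 1 base between the copies. Of the 8 genes, 3 had an entry in the RefSeq promoter table of GRCm38.p6, and the 250 bases before the transcription start of that entry are shown, each on its gene's strand, because the only gene past the stricter threshold is among them. The table gives 1 start per gene here. That of Fabp1 lies 52 bases inside the gene as deposited, and that of Cd36 lies 52905 bases inside it, so the Cd36 window is within the gene and not at its outermost start. Both strands were searched for the repeat with up to 2 mismatches over the 12 letters compared, and capitals mark the best match with its spacer base.
Fabp1 (chr6:71199629-71199878, plus strand): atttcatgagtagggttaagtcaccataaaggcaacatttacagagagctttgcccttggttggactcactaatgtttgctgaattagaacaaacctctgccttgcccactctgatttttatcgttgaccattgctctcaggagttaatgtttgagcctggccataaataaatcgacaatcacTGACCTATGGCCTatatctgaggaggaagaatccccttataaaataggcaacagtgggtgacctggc
Cd36 (chr5:17835897-17836146, minus strand): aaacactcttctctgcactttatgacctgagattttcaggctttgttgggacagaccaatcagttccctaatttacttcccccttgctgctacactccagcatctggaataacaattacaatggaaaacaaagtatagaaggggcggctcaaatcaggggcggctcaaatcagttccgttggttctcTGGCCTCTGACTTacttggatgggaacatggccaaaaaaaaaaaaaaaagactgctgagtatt
Acaa1b (chr9:119157094-119157343, minus strand): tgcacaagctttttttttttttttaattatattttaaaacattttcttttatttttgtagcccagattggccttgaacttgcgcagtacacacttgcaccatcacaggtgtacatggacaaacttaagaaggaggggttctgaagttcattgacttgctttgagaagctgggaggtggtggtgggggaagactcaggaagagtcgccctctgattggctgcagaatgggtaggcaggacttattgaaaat
In Fabp1 the match had 1 mismatch, lay on the strand opposite to the gene and ended 55 bases before the start. Of the 32851 promoter windows of the same length, 0.484% held a match with at most 1 mismatch. In Cd36 the match had 2 mismatches, also on the opposite strand, at a level that 3.24% of windows reached. No such letters were found in the Acaa1b window. These matches describe the sequence and are no measure of binding.

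Genes of proximal tubule transport also had mostly positive log2 fold changes. Of 49 tested, 4 (Slc22a12, Slc22a8, Abcc2 and Slc13a3) were higher at an adjusted p under 0.5 (0.7% of all genes) and none was lower. At an unadjusted p under 0.05, 10 were higher (20.4%, against 3.28% of all genes) and none lower. The median log2 fold change was 0.33, with 44 positive and 5 negative members. Slc22a12, the urate transporter of the brush border, was at 83, 39.4, 130.2 and 49.2 FPKM in CKD mice 1 to 4 and 131, 226, 184 and 176 FPKM in CKD+Fe mice 1 to 4. The lowest CKD+Fe mouse and the highest CKD mouse were nearly equal, without overlap, and control mice ran from 753 to 857 FPKM (log2 fold change 1.36, standard error 0.29, adjusted p = 0.254). Slc22a8, an organic anion transporter of the basolateral side, was at 43, 24, 45.7 and 41 and 46.8, 124, 103 and 85.9 FPKM in the same mice. Again CKD+Fe mouse 1 was just above the CKD mice and the others were well above them (log2 fold change 1.16, standard error 0.27, adjusted p = 0.277). The efflux pump gene Abcc2 had 26.9 ± 9.92 FPKM in CKD mice and 55.8 ± 17.6 FPKM in CKD+Fe mice (SD, n = 4 each, limma adjusted p = 0.4), and the dicarboxylate transporter gene Slc13a3 had 60.9 ± 11 and 107 ± 27.9 FPKM (SD, n = 4 each, limma adjusted p = 0.4). Both overlapped between groups through 1 mouse. The glucose transporter Slc5a2 did not pass, with 69.5, 52.1, 77.4 and 60.6 FPKM in CKD mice and 27.9, 122, 112 and 68 FPKM in CKD+Fe mice (adjusted p = 0.993). For Slc5a2, CKD+Fe mouse 1 was the lowest of the 8 mice and CKD+Fe mouse 2 the highest.

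Metabolic enzymes of the proximal tubule had the highest median of the 31 lists, 0.47 on the log2 scale over 60 genes, with 51 positive and 9 negative members. Of them, 16 were higher (26.7%, against 3.28% of all genes) and 1 was lower at an unadjusted p under 0.05. At an adjusted p under 0.5, Gsta2, Ddc and Dpys were higher and Ugt2b37 was lower, against 0.7% and 0.548% of all genes. Ddc, which makes dopamine in the tubule, was at 24.9, 17.1, 26.7 and 29.7 FPKM in CKD mice and 33.2, 40.8, 47.6 and 48.7 FPKM in CKD+Fe mice, without overlap (log2 fold change 0.78, standard error 0.20, adjusted p = 0.4). Dpys, an enzyme of pyrimidine breakdown, was low in both groups, with 0.0901 to 0.792 FPKM in CKD mice and 0.621 to 1.57 FPKM in CKD+Fe mice, against 5.13 to 8.85 FPKM in controls (adjusted p = 0.479). Ugt2b37, a glucuronosyltransferase, went the other way, with 52, 51.7, 72 and 45.5 FPKM in CKD mice and 21.4, 52.9, 17.4 and 13.2 FPKM in CKD+Fe mice. Of the CKD+Fe mice, 3 were below all CKD mice and mouse 2 was among them (log2 fold change -1.23, standard error 0.32, adjusted p = 0.4). The gluconeogenic enzyme Pck1 did not pass, at 461, 262, 169 and 516 FPKM in CKD mice and 200.3, 948, 663 and 612 FPKM in CKD+Fe mice (adjusted p = 0.912), and CKD+Fe mouse 1 was again at the CKD level. The Gsta and Ugt2b genes are multigene families whose shared reads make single members uncertain. Over the transport list, the mean of log2(FPKM + 1) was 5.06, 4.31, 4.8 and 4.68 in CKD mice 1 to 4 and 4.44, 5.49, 5.31 and 5.05 in CKD+Fe mice 1 to 4. CKD+Fe mouse 1 lay below 3 of the CKD mice, and CKD mouse 1 was just above CKD+Fe mouse 4, so the groups overlapped. With both outlying mice left out the medians were 0.54 for transport and 0.78 for metabolism, and 33 of 49 and 41 of 60 genes were higher at an adjusted p under 0.5, against 10.9% of all genes in that fit. Other mice left out lowered the medians, to 0.179 for transport without CKD+Fe mouse 2 and to 0.247 for metabolism without CKD mouse 2.

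The collecting duct and its acid-base cells formed a further group. All 29 tested genes of the collecting duct list had a positive log2 fold change, with a median of 0.39. At an adjusted p under 0.5, 7 were higher (Insrr, Slc4a9, Hmx2, Slc4a1, Rhbg, Aqp3 and Slc26a4) and none lower, against 0.7% and 0.548% of all genes. At an unadjusted p under 0.05, 12 were higher (41.4%, against 3.28% of all genes). Several of the 7 are genes of intercalated cells, which secrete acid or base. Slc4a9, a bicarbonate transporter of the base-secreting type, was at 13.2, 15.4, 10.7 and 15.6 FPKM in CKD mice 1 to 4 and 17.6, 20.3, 30.3 and 22.6 FPKM in CKD+Fe mice 1 to 4. The groups did not overlap, and CKD+Fe mice also exceeded all control mice (8.55 to 13.1 FPKM) (log2 fold change 0.68, standard error 0.18, adjusted p = 0.415). Slc26a4, the chloride-bicarbonate exchanger pendrin of the same cells, was at 8, 4.93, 10.1 and 7.65 FPKM in CKD mice and 8.69, 16.4, 14.1 and 13.9 FPKM in CKD+Fe mice. CKD+Fe mouse 1 lay below CKD mouse 3 and the other CKD+Fe mice lay above all CKD mice (log2 fold change 0.72, standard error 0.22, adjusted p = 0.479). Slc4a1, the anion exchanger of acid-secreting cells and of red cells, was at 10.3, 4.09, 3.66 and 7.28 and 8.08, 10.9, 25.4 and 17.8 FPKM (log2 fold change 1.15, standard error 0.34, adjusted p = 0.462). Here CKD mouse 1 and CKD+Fe mouse 1 overlapped.

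Insrr, a receptor that senses alkaline fluid, was at 1.76, 1.67, 2 and 2.12 FPKM in CKD mice and 2.34, 4.3, 3.53 and 3.54 FPKM in CKD+Fe mice, without overlap (log2 fold change 0.60, standard error 0.16, adjusted p = 0.4). Rhbg, an ammonia transporter, was at 11.2, 8.4, 15.2 and 9.79 and 13.3, 21.4, 17.7 and 18.2 FPKM, with CKD mouse 3 above CKD+Fe mouse 1 (log2 fold change 0.63, standard error 0.19, adjusted p = 0.469). The homeobox gene Hmx2 was at 0.541 to 2.02 FPKM in CKD mice and 1.59 to 3.87 FPKM in CKD+Fe mice (adjusted p = 0.458). Outside the list, Atp6v1c2, a subunit of the vacuolar proton pump, had the third smallest p of all higher genes. It was at 7.63, 7.28, 10.9 and 8.71 FPKM in CKD mice and 13.2, 17.4, 17.2 and 22 FPKM in CKD+Fe mice, and at 19.1 to 23.5 FPKM in controls. No CKD+Fe mouse overlapped with a CKD mouse (log2 fold change 0.93, standard error 0.16, adjusted p = 0.14), and with both outlying mice left out it was 1.16 on the log2 scale (adjusted p = 0.017, with a range over all alternatives from 0.00493 to 0.608). Aqp3, a water channel on the basolateral side of principal cells, was at 61.7, 29.3, 47 and 30.4 FPKM in CKD mice and 42.7, 92.8, 101 and 97 FPKM in CKD+Fe mice, where mouse 1 alone was at the CKD level (log2 fold change 0.96, standard error 0.28, adjusted p = 0.469). Aqp2, the water channel of the luminal side, ran from 73.3 to 284 FPKM in CKD mice and from 124 to 243 FPKM in CKD+Fe mice and did not pass (adjusted p = 0.968).

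The amount of inner medulla in a piece of kidney can move collecting duct genes, and the list of papilla and urothelium genes is given beside them. It had 13 tested genes, 12 of them with a positive log2 fold change, a median of 0.45 and no gene at an unadjusted p under 0.05. Its mean of log2(FPKM + 1) was 3.28, 2.34, 1.95 and 2.09 in CKD mice 1 to 4 and 2.51, 3.14, 3.17 and 2.63 in CKD+Fe mice 1 to 4, so that CKD mouse 1 was the highest of all. The collecting duct mean was 4.22, 3.90, 4.11 and 4.09 and 4.17, 4.56, 4.71 and 4.65 in the same mice, where CKD+Fe mouse 1 alone lay within the CKD range. The part of sampling in the collecting duct result was not tested. With both outlying mice left out, the collecting duct median was 0.60, with 26 of 29 genes positive and 19 higher at an adjusted p under 0.5, against 10.9% of all genes in that fit. Its lowest median with 1 mouse left out was 0.352, without CKD+Fe mouse 3.

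In the loop of Henle and distal tubule, 22 of 31 genes were positive with a median of 0.20, and 2 were higher at an adjusted p under 0.5 (0.7% of all genes) with none lower. Egf, the growth factor made by the distal convoluted tubule, was at 129.8, 36.8, 43.9 and 58.1 FPKM in CKD mice and 86.1, 118, 248 and 167 FPKM in CKD+Fe mice. CKD mouse 1 lay above 2 of the CKD+Fe mice, and control mice were at 284 to 400.2 FPKM (log2 fold change 1.26, standard error 0.36, adjusted p = 0.458). Klk1, tissue kallikrein of the connecting tubule, was at 824, 567, 580.1 and 580.3 and 801, 1134, 1046 and 1021 FPKM, with CKD mouse 1 just above CKD+Fe mouse 1 (log2 fold change 0.66, standard error 0.17, adjusted p = 0.4). Umod, which encodes uromodulin, ran from 1922 to 2476 FPKM in CKD mice and from 1545 to 2300.0 FPKM in CKD+Fe mice and did not pass (adjusted p = 0.993). Slc12a1, the salt transporter of the same segment, did not pass either, with 342 ± 195 and 354 ± 110.2 FPKM (SD, n = 4 each, limma adjusted p = 0.993).

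**Figure D2:**
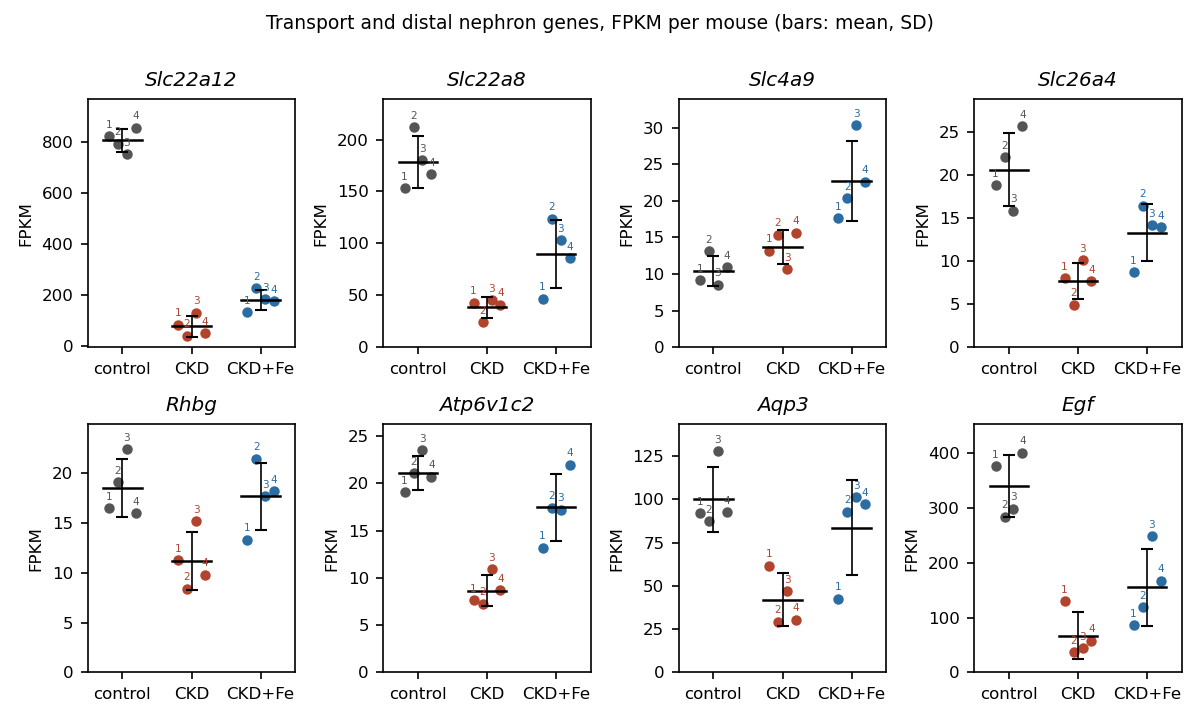
FPKM (vertical axes, linear from 0) of 2 proximal tubule transporters, 4 genes of the collecting duct list, the proton pump gene Atp6v1c2 and Egf, 1 point per mouse with its number in control, CKD and CKD+Fe mice, with group means and SD (n = 4). CKD+Fe mouse 1 is the lowest of its group in each panel, and Slc4a9 is the only one of the 8 in which every CKD+Fe mouse exceeds every control mouse.

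Among genes lower in CKD+Fe mice, the smallest p belonged to Arhgap36 (chrX:49463945-49500244), a gene of the GTPase-activating protein family that is scarcely expressed in the healthy kidney. It was at 7.03, 4.85, 7.7 and 4.78 FPKM in CKD mice 1 to 4, 1.88, 1.54, 1.92 and 2.81 FPKM in CKD+Fe mice 1 to 4 and 0 to 0.232 FPKM in controls. No CKD+Fe mouse overlapped with a CKD mouse, and the mean was 0.335 times that of CKD mice (log2 fold change -1.21, standard error 0.17, adjusted p = 0.0524), just short of the threshold of 0.05. Across single mice left out, the log2 fold change ran from -1.33 to -1.11. Sult4a1, a member of the sulfotransferase family, was at 3.8, 3.41, 5.42 and 3.13 FPKM in CKD mice and 1.91, 1.11, 0.886 and 1.49 FPKM in CKD+Fe mice, also without overlap (log2 fold change -1.07, standard error 0.17, adjusted p = 0.0939). Nfasc, a cell adhesion gene known from axons, was at 1.24, 1.36, 1.38 and 1.71 and 0.79, 0.445, 0.275 and 0.362 FPKM (log2 fold change -0.73, standard error 0.13, adjusted p = 0.16). Wnt7a, a secreted signal of the Wnt family, was at 1.34, 2.95, 4.05 and 2.94 FPKM in CKD mice and 1.04, 0.794, 1.05 and 0.692 FPKM in CKD+Fe mice (log2 fold change -0.96, standard error 0.19, adjusted p = 0.221). Aldh1a2, which makes retinoic acid, was at 44.2, 43.7, 55.8 and 40.5 and 29.3, 32.8, 18.5 and 26.8 FPKM (log2 fold change -0.78, standard error 0.17, adjusted p = 0.254). None of these overlapped between the groups, where 1.09% of all genes lay wholly below, and all had control values below their CKD+Fe values. They were picked by their small p, so the separation adds no support. Nfasc reached 1 FPKM in the 4 CKD mice only, so the filter itself fixed its separation.

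The other genes with the 12 smallest p among lower genes were Cfi, Moxd1, Olfml2b, Cdca7, Lhfp, Ttc9 and Adgra1. Their log2 fold changes ran from -1.01 (Cfi) to -0.58 (Cdca7), and their adjusted p from 0.143 to 0.275. None overlapped between the groups, where 1.09% of all genes lay wholly below, but genes picked by their small p tend to separate. Moxd1 passed the filter mainly through CKD mice, at 1.34 to 2.6 FPKM against 0.578 to 1 FPKM in CKD+Fe mice. Cfi, complement factor I, which inactivates C3b, was at 32, 34.9, 52.1 and 53.2 FPKM in CKD mice and 17.2, 24.3, 19.1 and 21.2 FPKM in CKD+Fe mice (log2 fold change -1.01, standard error 0.18, adjusted p = 0.143). Control mice were at 1.82 to 2.63 FPKM, below both. Of the remaining 23 complement genes tested, none passed at an adjusted p under 0.5, which 0.548% of all genes passed as lower. Over all 24 the median was -0.18 with 17 negative. At an unadjusted p under 0.05, 5 of the 24 were lower (20.8%, against 2.73% of all genes) and 1 was higher (4.17%, against 3.28%). Among the 12 higher genes with the smallest p were also Gsta2 and Nqo1 of the antioxidant response, at adjusted p of 0.104 and 0.254. Those not described elsewhere in the text were Fitm1, a lipid droplet gene, Kcnip2, a potassium channel partner, Spp2, a secreted phosphoprotein, Spag8, and the unnamed model RP23-234F23.1. Fitm1 was at 8.57, 5.73, 10.1 and 7.63 FPKM in CKD mice and 14.7, 16.2, 18.7 and 14.2 FPKM in CKD+Fe mice (log2 fold change 0.93, standard error 0.18, adjusted p = 0.216), with every CKD+Fe mouse above every CKD mouse. Spp2 was at 128, 69.9, 83.5 and 110.0 and 141, 232, 294 and 169 FPKM, without overlap (log2 fold change 1.07, standard error 0.23, adjusted p = 0.254). Kcnip2 and Spag8 were low, with means of 2.72 and 1.24 FPKM in CKD+Fe mice against 1.16 and 0.366 FPKM in CKD mice. Spag8 reached 1 FPKM in the 4 CKD+Fe mice only, so the filter admitted it through its higher group and fixed its separation.

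Genes of tubule injury and failed repair had mostly negative log2 fold changes. Of 40 tested, 38 were negative, with a median of -0.38, and 10 were lower at an unadjusted p under 0.05 (2.73% of all genes) and none higher. Only Sox9, a transcription factor of regenerating tubule cells, was lower at an adjusted p under 0.5, against 0.548% of all genes. It was at 5.6, 10.7, 9.57 and 8.89 FPKM in CKD mice 1 to 4 and 5.72, 6.19, 3.58 and 4.92 FPKM in CKD+Fe mice 1 to 4. CKD mouse 1 lay among the CKD+Fe mice, and controls were at 0.191 to 0.401 FPKM (log2 fold change -0.66, standard error 0.19, adjusted p = 0.458). Krt20, a keratin of injured tubules, was at 12.2, 48.6, 18.8 and 46.9 FPKM in CKD mice and 17.7, 9.68, 9.23 and 15.7 FPKM in CKD+Fe mice and overlapped (adjusted p = 0.648). The injury marker Havcr1 (KIM-1) was at 189 ± 89.5 and 111 ± 46.5 FPKM (SD, n = 4 each, limma adjusted p = 0.8). Lcn2, which encodes the siderophore-binding protein NGAL, was at 1109 ± 374 and 713 ± 179.9 FPKM (SD, n = 4 each, limma adjusted p = 0.95). Neither marker passed, and both remained far above control mice in every CKD+Fe mouse. With both outlying mice left out, the list median was -0.43 and 17 of 40 genes were lower at an adjusted p under 0.5, against 17.6% of all genes in that fit. Without CKD+Fe mouse 3 alone the list median was -0.336.

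Matrix and myofibroblast genes showed the most calls among lower genes. Of 58 tested, 6 (Fn1, Col8a1, Loxl2, Col5a2, Col12a1 and Fbn1) were lower at an adjusted p under 0.5, against 0.548% of all genes, and none was higher. The median was -0.37, with 48 negative members, and 18 were lower at an unadjusted p under 0.05 (31%, against 2.73% of all genes). Fn1, fibronectin, was at 70.9, 109, 169 and 127 FPKM in CKD mice and 63.2, 71.3, 38.4 and 53.1 FPKM in CKD+Fe mice. The only overlap was between CKD mouse 1 and CKD+Fe mouse 2, at almost the same value (log2 fold change -1.03, standard error 0.25, adjusted p = 0.348). Col12a1, a collagen that links fibrils, was at 27.5, 39.4, 60.5 and 36.7 FPKM and 15.1, 26.9, 12.6 and 25.2 FPKM, without overlap (log2 fold change -1.01, standard error 0.29, adjusted p = 0.446). Loxl2, a collagen crosslinking enzyme, was at 10.1, 8.65, 11.7 and 11.8 and 7.67, 8.55, 5.41 and 5.4 FPKM, also without overlap (log2 fold change -0.59, standard error 0.16, adjusted p = 0.441). Fbn1, which encodes the microfibril protein fibrillin, was at 10.4 to 14.5 FPKM in CKD mice and 6.33 to 9.51 FPKM in CKD+Fe mice (adjusted p = 0.458), again apart. The main collagens of scar did not pass. Col1a1 was at 46.7, 41.9, 168 and 52.9 FPKM in CKD mice and 80.5, 59, 29.6 and 35.3 FPKM in CKD+Fe mice (adjusted p = 0.964), and without CKD mouse 3, the highest of the 8, its log2 fold change went from -0.44 to 0.01. Col1a2 was at 94.6, 95.2, 212 and 113 and 108, 104, 57.9 and 70.7 FPKM (adjusted p = 0.835), and CKD mouse 3 again stood far above the rest. With both outlying mice left out the median of the list was -0.41, and 31 of 58 genes were lower at an adjusted p under 0.5 and 1 was higher, against 17.6% and 10.9% of all genes in that fit. Without CKD mouse 3 alone the median of the list was -0.231.

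**Figure D3:**
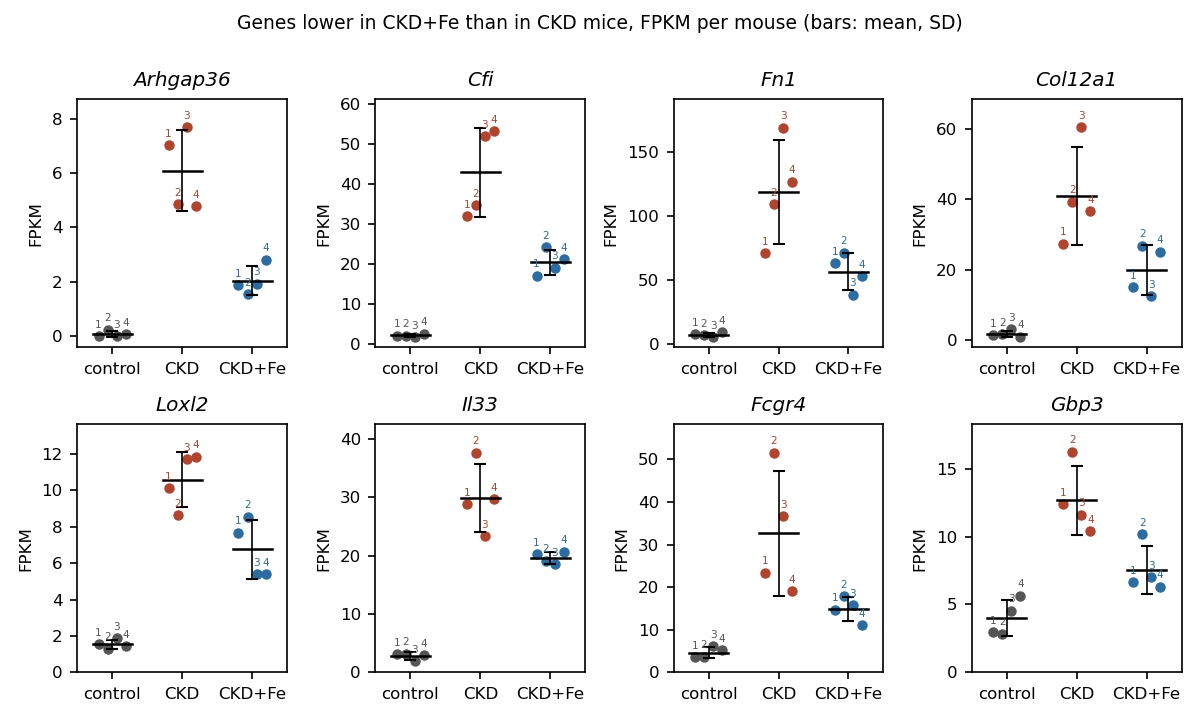
FPKM (vertical axes, linear from 0) of 8 genes with lower values in CKD+Fe mice, 1 point per mouse with its number, with group means and SD (n = 4). All 8 had an adjusted p under 0.5. Fn1 is the only panel of the 8 in which CKD and CKD+Fe mice overlap, and all CKD+Fe mice stay above the control mice.

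Among 36 cytokine and chemokine genes, 29 were negative, with a median of -0.23, and Lif and Il33 were lower at an adjusted p under 0.5 (0.548% of all genes). Il33, an alarmin released by damaged cells, was at 28.8, 37.6, 23.3 and 29.7 FPKM in CKD mice and 20.2, 19.1, 18.5 and 20.7 FPKM in CKD+Fe mice. All CKD+Fe mice were below all CKD mice and within a narrow band (log2 fold change -0.56, standard error 0.16, adjusted p = 0.456). Lif, a cytokine of the interleukin 6 family, was at 5.33, 8.18, 10.1 and 8.54 and 4.97, 6.29, 3.33 and 3.24 FPKM, with CKD mouse 1 below CKD+Fe mouse 2 (log2 fold change -0.74, standard error 0.20, adjusted p = 0.435). The list without both outlying mice had a median of -0.44 with 16 lower genes at an adjusted p under 0.5 (17.6% of all genes in that fit), and leaving out CKD mouse 2, which had the highest list mean, brought the median to -0.05.

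Macrophage genes had fold changes in both directions. Of 43, 19 were positive and 24 negative with a median of -0.06, and 1 was lower at an adjusted p under 0.5 (0.548% of all genes) and none higher. That gene, Fcgr4, an activating receptor for IgG, was at 23.4, 51.6, 36.7 and 19.1 FPKM in CKD mice and 14.7, 17.9, 15.8 and 11.1 FPKM in CKD+Fe mice. No mice overlapped, and CKD mouse 4 was nearest to the CKD+Fe mice (log2 fold change -1.01, standard error 0.27, adjusted p = 0.4). Markers of alternatively activated macrophages went in opposite directions without passing. Arg1, arginase, was at 3.95, 18.4, 5.29 and 19 FPKM in CKD mice and 2.41, 4.22, 2.51 and 7.54 FPKM in CKD+Fe mice (log2 fold change -1.13, adjusted p = 0.712). Retnla was at 1.29, 0.31, 1.15 and 0.104 and 2.16, 0.95, 2.32 and 6.33 FPKM (log2 fold change 1.10, adjusted p = 0.515). Its highest value was in CKD+Fe mouse 4, where the fat marker Adipoq was also highest. Without that mouse the log2 fold change of Retnla was 0.746. Groups overlapped for both genes. The lysosomal marker Cd68 was at 49.1, 139, 104 and 74.9 FPKM in CKD mice and 246, 75.3, 137 and 99.8 FPKM in CKD+Fe mice, with CKD+Fe mouse 1 the highest of all (adjusted p = 0.958). The list median ran from -0.24 to 0.11 when single mice were left out. Neutrophil genes had a median of -0.22 with 10 of 11 negative and none at an unadjusted p under 0.05. Without CKD mouse 2 alone the neutrophil median was 0.006.

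Interferon response genes were nearly all on 1 side, with 41 of 42 negative and a median of -0.40, the lowest of the 31 lists. At an unadjusted p under 0.05, 8 were lower (19.05%, against 2.73% of all genes) and none higher, and Gbp3 was lower at an adjusted p under 0.5 (0.548% of all genes). Gbp3, a guanylate-binding protein gene induced by interferon gamma, was at 12.4, 16.2, 11.6 and 10.4 FPKM in CKD mice and 6.62, 10.2, 7.03 and 6.31 FPKM in CKD+Fe mice, with CKD mouse 4 and CKD+Fe mouse 2 almost touching (log2 fold change -0.68, standard error 0.21, adjusted p = 0.479). Its neighbour Gbp2 was at 17.2, 25.6, 18.7 and 17.5 and 13.4, 13.7, 11.4 and 11.9 FPKM, also without overlap (adjusted p = 0.595), and these genes have close paralogs. Irf7, a transcription factor of the type I response, was at 33.8 ± 14.4 FPKM in CKD mice and 17.8 ± 8.45 FPKM in CKD+Fe mice (SD, n = 4 each, limma adjusted p = 0.779) and did not pass. The list mean of log2(FPKM + 1) was 4.18, 4.39, 4.14 and 3.54 in CKD mice 1 to 4 and 3.73, 3.996, 3.58 and 3.34 in CKD+Fe mice 1 to 4. CKD mouse 4 lay below 3 of the CKD+Fe mice, so the means overlapped. The median was -0.39 with both outlying mice left out, with 15 of 42 genes lower at an adjusted p under 0.5, against 17.6% of all genes in that fit. Without CKD mouse 2 alone the median was -0.289.

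Lymphoid genes leaned the other way. Of 21 T, B and plasma cell genes, 17 were positive with a median of 0.24, and Mzb1, a chaperone of antibody-secreting cells, was higher at an adjusted p under 0.5 (0.7% of all genes). It was at 2.63, 1.28, 1.54 and 1.22 FPKM in CKD mice and 2.8, 2.87, 3.98 and 5.07 FPKM in CKD+Fe mice, without overlap although CKD mouse 1 was close to CKD+Fe mouse 1 (log2 fold change 0.81, standard error 0.21, adjusted p = 0.4). Jchain, the joining chain of polymeric antibodies, was at 73.6, 33.2, 3 and 1 and 68.8, 27.6, 28.9 and 34.1 FPKM and did not pass (adjusted p = 0.874). CKD mouse 4 had the lowest list mean of the 8, and without it the median was 0.03.

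Iron genes of the whole kidney were close to balanced. Of 37, 16 were positive and 21 negative, the median was -0.05, and 1, Ftl1, the ferritin light chain, was higher at an adjusted p under 0.5 (0.7% of all genes) with none lower. Ftl1 was at 1646, 2135, 3086 and 1626 FPKM in CKD mice 1 to 4 and 5588, 2816, 4088 and 3172 FPKM in CKD+Fe mice 1 to 4. The highest of all was CKD+Fe mouse 1, and CKD+Fe mouse 2 lay below CKD mouse 3 (log2 fold change 0.88, standard error 0.26, adjusted p = 0.479). Ftl1 has processed copies in the mouse genome, so its reads may be shared. Tfrc, the transferrin receptor, was at 37.3, 19.6, 14.2 and 19.6 FPKM in CKD mice and 14.7, 23.9, 20.5 and 16.4 FPKM in CKD+Fe mice and did not pass (log2 fold change -0.19, adjusted p = 0.982). Slc25a28, the mitochondrial iron importer mitoferrin 2, was at 24 to 34.9 and 31.7 to 42.6 FPKM (adjusted p = 0.824). Ferritin is regulated largely at translation, and the table holds transcripts only.

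Of 19 heme synthesis and erythroid genes, 11 were positive and 8 negative, with a median of 0.11. Slc4a1, described above with the collecting duct, was the one gene of this list higher at an adjusted p under 0.5 (0.7% of all genes). The globin transcripts did not share its direction, and among CKD mice they were high in mice 2 and 3 only. Epor, the erythropoietin receptor, did share it, at 2.39 to 3.33 FPKM in CKD mice and 3.21 to 4.13 FPKM in CKD+Fe mice. Hbb-bs, adult beta globin, was at 3.62, 73.9, 71.9 and 6.44 FPKM in CKD mice and 26.2, 9.75, 5.25 and 3.01 FPKM in CKD+Fe mice, with overlapping groups. Ppox, of heme synthesis, was at 20.6 to 31.5 FPKM in CKD mice and 30.9 to 36.8 FPKM in CKD+Fe mice (adjusted p = 0.701). Hypoxia response genes were balanced in sign, with 14 of 29 positive and a median of -0.02. At an unadjusted p under 0.05, 3 were lower (10.3%, against 2.73% of all genes) and 1 was higher (3.45%, against 3.28%). The one gene lower at an adjusted p under 0.5 (0.548% of all genes) was Loxl2, which is also a matrix gene.

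Cell cycle genes had a median of -0.39 with 43 of 46 negative and no gene at an adjusted p under 0.5. Their mean was 2.63, 2.70, 3.21 and 2.64 in CKD mice 1 to 4 and 2.13, 3.16, 2.05 and 2.32 in CKD+Fe mice 1 to 4 on the log2(FPKM + 1) scale. CKD mouse 3 and CKD+Fe mouse 2 were both high and the remaining CKD+Fe mice lay below all CKD mice. Plk1, a mitotic kinase, followed this pattern, at 2.96, 2.5, 4.93 and 2.59 FPKM in CKD mice and 1.09, 4.15, 0.942 and 1.17 FPKM in CKD+Fe mice (adjusted p = 0.782). Without CKD+Fe mouse 2 the median of the list was -0.64, and with both outlying mice left out it was -0.15. Nuclear-encoded genes of the respiratory chain all had a positive log2 fold change, 55 of 55 with a median of 0.21, though just 1 passed an unadjusted p under 0.05 (3.28% of all genes were higher by it). Their mean was 8.14, 7.92, 8.35 and 7.81 in CKD and 8.11, 8.38, 8.30 and 8.32 in CKD+Fe mice. CKD mouse 3 lay above 3 of the CKD+Fe mice, and with both outlying mice left out the median was 0.37 with 44 of 55 genes higher at an adjusted p under 0.5, against 10.9% of all genes in that fit. Without CKD mouse 4 alone the median of the respiratory chain list was 0.138. Cholesterol synthesis genes had a median of 0.21 with 21 of 24 positive, led by CKD+Fe mouse 3, without which the median was 0.03.

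**Figure D4:**
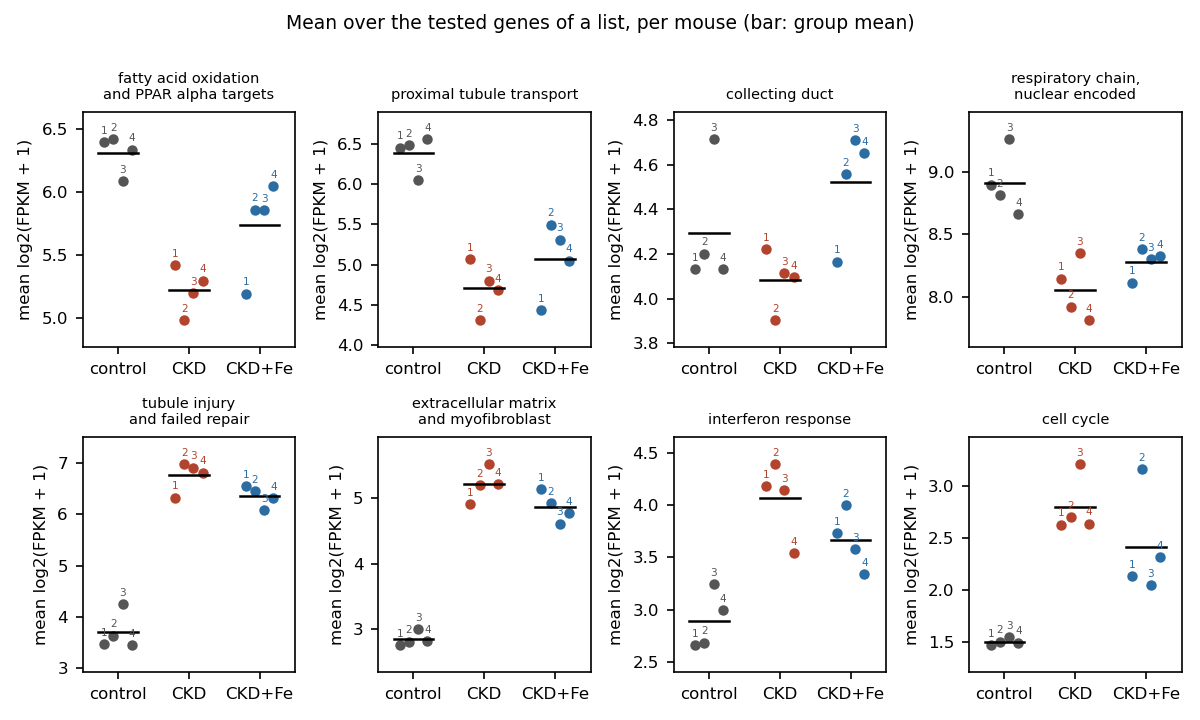
Mean of log2(FPKM + 1) over the tested genes of 8 lists (vertical axes, which do not start at 0), 1 point per mouse with its number in control, CKD and CKD+Fe mice, with the group mean as a bar. CKD+Fe mouse 1 lies within the CKD range in the lipid, transport, collecting duct and respiratory chain panels. Within that range also lie CKD+Fe mouse 4 for transport and CKD+Fe mice 3 and 4 for the respiratory chain. So do CKD+Fe mice 1 and 2 for injury and for matrix, and CKD+Fe mice 1 to 3 for interferon response. CKD+Fe mouse 2 and CKD mouse 3 are the highest of their groups for cell cycle genes, and this CKD+Fe mouse is there in the CKD range.

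Of 22 genes of proteins mainly secreted by the liver, 18 were positive with a median of 0.45, and 6 were higher at an unadjusted p under 0.05 (3.28% of all genes). Apoc1, an apolipoprotein, was higher at an adjusted p under 0.5 (0.7% of all genes), with 8.54, 7.97, 8.6 and 14.7 FPKM in CKD mice and 14.5, 24.7, 15.8 and 28.1 FPKM in CKD+Fe mice. CKD mouse 4 lay just above CKD+Fe mouse 1 (log2 fold change 0.98, standard error 0.25, adjusted p = 0.4). The defining liver transcript Alb was low throughout, at 0.57 to 2.2 FPKM in CKD mice and 0.584 to 8.37 FPKM in CKD+Fe mice, against 5.39 to 6.24 FPKM in controls. In the remaining lists no gene passed an adjusted p under 0.5. Their medians were 0.24 (11 of 18 positive) for androgen-responsive kidney genes, 0.15 (12 of 17 positive) for klotho, vitamin D and renin, and 0.13 (24 of 31 positive) for podocyte and endothelium. The median was 0.02 (26 of 50 positive) for lysosomal genes, -0.01 (16 of 47 positive) for ribosomal proteins and 0.06 (12 of 20 positive) for the circadian clock. It was -0.07 (13 of 37 positive) for the unfolded protein response, -0.13 (5 of 22 positive) for immediate early genes and -0.10 (6 of 30 positive) for p53 targets. Of the fat, adrenal and muscle genes 4 were tested, with a median of 0.14.

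**Figure D5:**
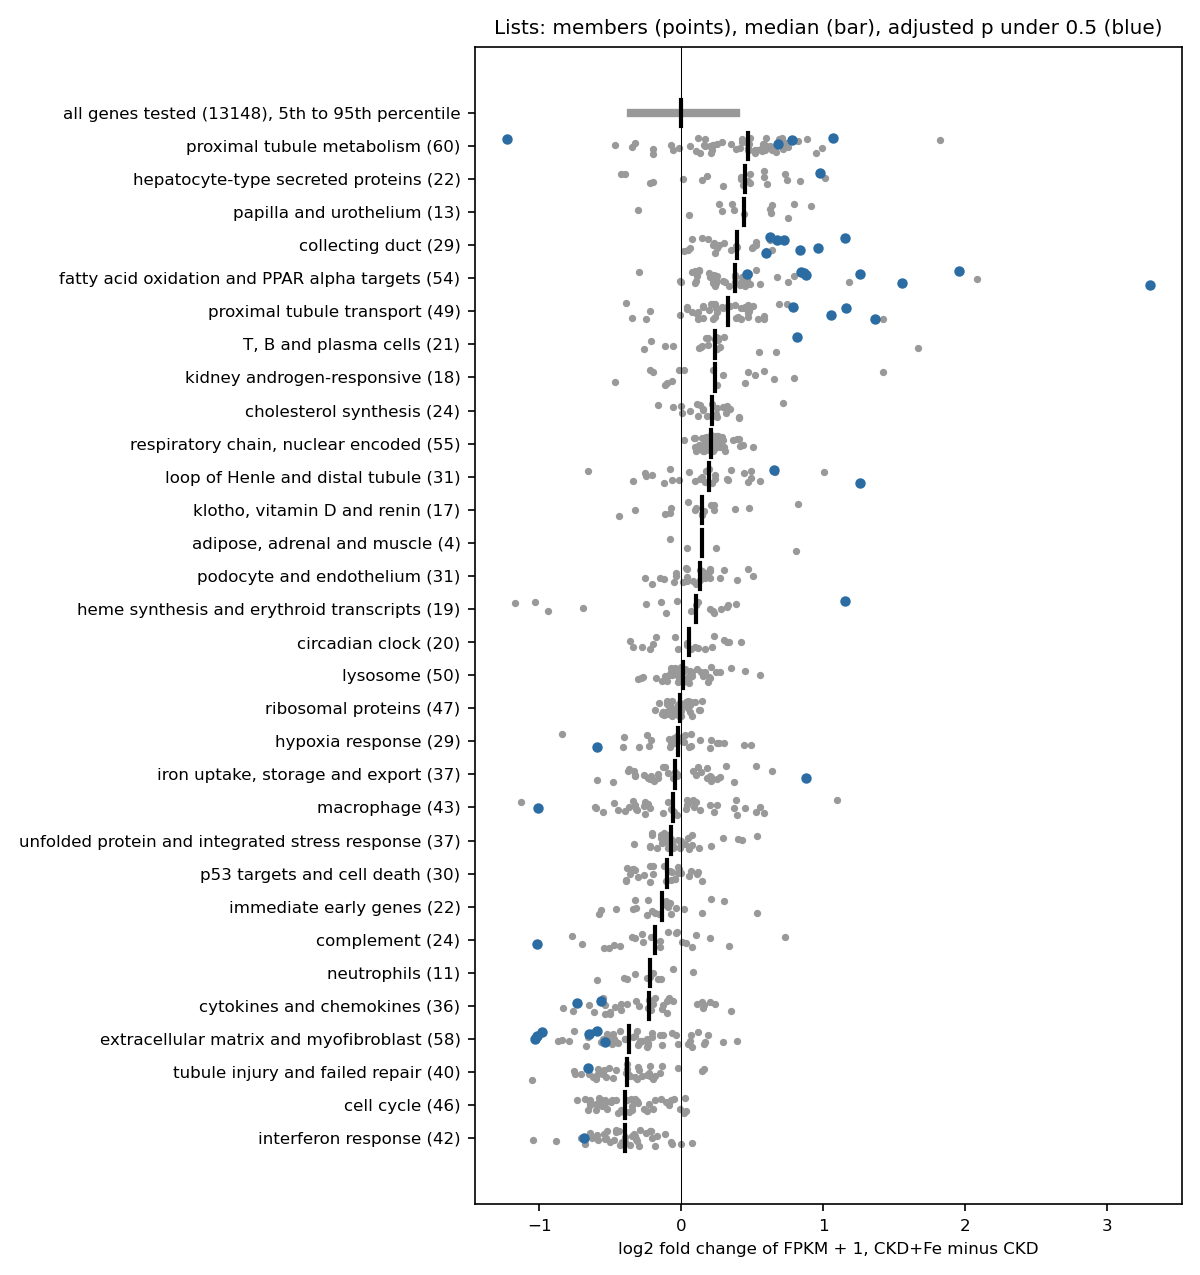
Log2 fold change of FPKM + 1 (horizontal axis, CKD+Fe minus CKD) of every tested gene of the 31 lists, 1 point per gene, with the number of genes in brackets, the list median as a bar and genes at an adjusted p under 0.5 in blue. The grey line for all 13148 genes spans the 5th to 95th percentile, -0.35 to 0.38, and lists run from interferon response at -0.40 to proximal tubule metabolism at 0.47.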

How the data were processed

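Whole kidney RNA of 12 mice was measured by stranded mRNA sequencing with single-end reads. Per the submitters' processing notes, bcl2fastq 2.19, STAR 2.5.2, Cufflinks 2.1.1 and the build GRCm38 were used, and the annotation is not given in the sources used here. For every mouse, the authors deposited the FPKM of each protein-coding gene, scaled to that mouse's own reads. Such values hide the read depth, so no counting error can be given, and they show shares of RNA, not amounts per kidney. The 30 values marked as failed estimates were treated as missing. Columns of no mouse of this series numbered 0.

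Groups were compared on the log2(FPKM + 1) scale, using limma 3.58.1 and R 4.3.3 (variance trend, all 12 mice in 1 fit, two-sided p adjusted by the Benjamini-Hochberg method over the 13148 genes that reached 1 FPKM in 4 or more mice). FPKM are not counts, so the count test of the study's methods was not run. The fit was tested on simulated data. For single genes, the exact permutation test used 70 arrangements. Groups were taken from the labels, which name no batch.

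The 31 gene lists were written from general knowledge, and a list of mitochondrially encoded genes had no member in the table. The comparison, the members and the lists were chosen with earlier results of these data known, so no list is independent evidence. Lists are described by counts and medians, with the share of all genes called in the same fit. Genes to name were those past an adjusted p of 0.05, the 12 higher and 12 lower genes with the smallest p, and, in each list, the 3 smallest p, the first 2 genes and all genes at an adjusted p under 0.5. Of these 178 genes, the text gives the ones that illustrate a list, and a few results are not reported here. Alternatives were a pseudocount of 0.1, no filter, quantile normalization, median-of-ratios rescaling, a mean of at least 5 FPKM, only both CKD groups in the fit, array weights, no variance trend, and mice left out. Gene starts, which the deposited table counts from 0, are given counted from 1. Promoter sequences are from RefSeq (GRCm38.p6).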

Additional observations from a re-analysis of the deposited data

Results flagged for a closer look

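A mouse was set apart where its gap to the nearest of the other 3 in its group, divided by the range of the group, exceeded Dixon's critical value for 4 samples. Chance does this in about 1 of 20 groups. Over the list means and 78 of the genes named in the text, 15 of 218 checks (6.9%) did so, little above that rate.

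Among genes, Aqp3 was at 42.66 FPKM in CKD+Fe mouse 1 against 92.8 to 101.3 FPKM in the other 3. CKD mouse 1 stood apart for Klk1 (824.3 FPKM, others 567 to 580.3), Umod (2476 FPKM, others 1922 to 1953) and Col5a2 (13.83 FPKM, others 17.8 to 18.6). CKD mouse 3 stood apart for Col1a1 (167.8 FPKM, others 41.9 to 52.9) and Col1a2 (212.3 FPKM, others 94.6 to 113). CKD+Fe mouse 2 was high for Plk1 (4.15 FPKM, others 0.942 to 1.17) and Spag8 (1.757 FPKM, others 1.04 to 1.13). CKD+Fe mouse 1 was high for Jchain (68.77 FPKM, others 27.6 to 34.1). CKD mouse 4 was high for Apoc1 (14.71 FPKM, others 7.97 to 8.60) and Ttc9 (3.589 FPKM, others 2.40 to 2.41).

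Among list means of log2(FPKM + 1), CKD mouse 4 was low for T, B and plasma cells (1.475, others 2.32 to 2.45). CKD mouse 3 was high for the cell cycle (3.21, others 2.63 to 2.70) and for the unfolded protein and integrated stress response (5.478, others 5.15 to 5.17). CKD+Fe mouse 1 was low for the loop of Henle and distal tubule (5.774, others 6.42 to 6.54).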

How the results depend on the processing

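Counts of called genes depended on which mice were in the fit and on their weights, on the filter, on the pseudocount and on whether controls shared the fit. Genes higher and lower in CKD+Fe mice at an adjusted p under 0.05 (1 and 0 as reported) numbered 79 and 56 with array weights, which reweighted all 12 mice, from 0.206 for CKD mouse 3 to 3.191 for control mouse 1. They numbered 8 and 7 without CKD mouse 3 and CKD+Fe mouse 1, 1 and 1 without the variance trend, and 0 and 0 with no filter, with a pseudocount of 0.1 or with only both CKD groups in the fit. At an adjusted p under 0.5 (92 and 72 as reported) they were 2516 and 2935 with array weights, 1427 and 2310 without both mice, 174 and 179 with no filter, 146 and 133 with quantile normalization, 38 and 17 at a mean of at least 5 FPKM, 22 and 11 with a pseudocount of 0.1, and 7 and 4 with only both CKD groups in the fit. With 1 mouse left out, the counts ran from 0 to 9 higher and 0 to 4 lower at 0.05, and from 2 to 1027 higher and 2 to 1433 lower at 0.5. Complete separation upwards (178 genes) ran from 238 to 626 and downwards (143) from 173 to 988 with 1 mouse left out, where fewer mice separate more easily, and reached 1100 and 1971 without both mice. At a mean of at least 5 FPKM, 78 genes separated downwards. The cause of the other shifts was not tested.

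Fabp1 lost its call with no filter (adjusted p = 0.0925), with a pseudocount of 0.1 (0.0731) and with only both CKD groups in the fit (0.297), all from limma, with log2 fold changes of 3.30, 3.74 and 3.30. Of 527 list medians under alternatives, 525 moved by less than the SD between mice. The exceptions were the collecting duct median, 0.597 without both mice, and the fat, adrenal and muscle median, 0.527 at a mean of at least 5 FPKM. Directions under the alternatives were compared for 78 of the genes named, and 73 of these kept theirs in every alternative. The rest of the 78 had no call. Other named genes, among them Hbb-bs, Fth1, Slc40a1 and Runx1, were not compared in this way. Slc5a2 ran from -0.101 (without CKD+Fe mouse 2) to 0.594 with 1 mouse left out, and was -0.06 without CKD+Fe mouse 3. Umod ran from -0.141 to 0.05, was 0.021 without CKD mouse 1 and was 0.023 without both mice. Slc12a1 ran from -0.276 to 0.573 and was -0.078 without both mice. Col1a1 ran from -0.695 to 0.011, and Tfrc from -0.372 to 0.072. No paired analysis was possible because the groups share no replicate numbers in the labels. Depth limits low genes most, and 4 mice per group cannot give an exact p under 0.0286.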

Other observations

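Genes of drug and xenobiotic metabolism, most of them outside the lists, were among the higher genes. They were chosen after their values were seen, so no test of the group is given. Of 40 cytochrome P450 genes tested by symbol, 32 had a positive log2 fold change with a median of 0.28, and 4 were higher at an adjusted p under 0.5 with none lower, against 0.7% and 0.548% of all genes. These shares apply to the other families below as well. They were Cyp4a10 and Cyp4a31, described with the lipid genes, Cyp2d26 and Cyp2a5. Cyp2a5, a coumarin hydroxylase, was at 14.9 ± 6.46 FPKM in CKD mice and 50.2 ± 32 FPKM in CKD+Fe mice (SD, n = 4 each, limma adjusted p = 0.458). All 4 carbonyl reductase genes were positive, and Cbr1 and Cbr3 were called. All 4 flavin monooxygenase genes were positive, and Fmo1 was called, at 103 ± 15.7 and 177 ± 55 FPKM (SD, n = 4 each, limma adjusted p = 0.4). Of 14 glucuronosyltransferase genes, 10 were positive, Ugt2b34 was higher and Ugt2b37 lower. Retinoid enzymes went in both directions. Aldh1a1 and Retsat were higher, Aldh1a1 at 13.5 ± 4.31 and 29.5 ± 9.44 FPKM (SD, n = 4 each, limma adjusted p = 0.4), and Aldh1a2 was lower.

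Lower genes outside the lists, also chosen after their values were seen, included transcription and cell identity genes whose means in control mice were below those of both CKD groups. Runx1, a transcription factor of blood and injured epithelium, was at 9.8 ± 1.15 FPKM in CKD mice and 6.25 ± 1.33 FPKM in CKD+Fe mice, and at 0.477 ± 0.24 FPKM in controls (SD, n = 4 each, limma adjusted p = 0.435). Cdkn2a, a cell cycle inhibitor used as a marker of senescence, was at 1.54 ± 0.0707 and 0.808 ± 0.36 FPKM (SD, n = 4 each, limma adjusted p = 0.456). The 4 CKD mice alone were enough for Cdkn2a to pass the filter, so its higher group admitted it. Cldn6, a tight junction gene of embryonic epithelia, was at 7.65 ± 2.25 and 3.87 ± 0.656 FPKM (SD, n = 4 each, limma adjusted p = 0.275). Sftpd, a collectin of mucosal surfaces, was at 6.91 ± 2.28 and 3.02 ± 0.918 FPKM (SD, n = 4 each, limma adjusted p = 0.277). Of 26 collagen genes tested by symbol, 19 were negative and 4 were lower at an adjusted p under 0.5, where 0.548% of all genes were (Col8a1, Col8a2, Col5a2 and Col12a1). Of 9 Wnt genes, 8 were negative, and Wnt7a was the one called.

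The heavy and light ferritin chains gave different values at the transcript level. Ftl1 had a log2 fold change of 0.88 and Fth1 of 0.10, the latter with 3530.0 ± 786 FPKM in CKD mice and 3765 ± 573 FPKM in CKD+Fe mice (SD, n = 4 each, limma adjusted p = 0.993). The difference between the chains was not tested. Slc40a1, ferroportin, was at 36.9 ± 7.96 and 54.1 ± 13.7 FPKM (SD, n = 4 each, limma adjusted p = 0.859).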
